A study of Zea mays with 2 samples.

Results

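The chloroplast genome of maize contributed 157 of the 46430 features in the count tables. They were chosen by their identifier alone (all IDs that start with ZemaC), and all 157 matched a gene of the reference plastid annotation by ID. The data came from protoplasts of leaf 2 of V2 seedlings of the inbred line B73, taken from the distal 6 cm of the blade. Each of the 2 libraries was made from 1 pool of 6 plants with Chromium 3′ chemistry, in which every captured molecule carries a unique molecular identifier (UMI). No genotype or treatment differed, and both libraries carry the same labels. They count here as 2 replicates of a common group. By the study's methods the second data set came from plants grown at another time under the same conditions. The main p-values set contrasts between groups of barcodes against a variance between these 2 pools that is shared by all genes. A gene's own spread between the pools has no weight in them. A general difference between the pools is taken out by a library term. The first library (library 1) comprised 7340 barcodes and 88081896 UMIs, the second 6104 barcodes and 41924567 UMIs. Chloroplast features took 2.22% of these UMIs in library 1 and 1.45% in library 2. The libraries shared 11 barcode sequences.

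The plastid genome of land plants encodes core subunits of the photosynthetic complexes, part of the plastid ribosome and RNA polymerase, and the plastid's ribosomal and transfer RNAs. Maize is a C4 plant of the NADP-malic enzyme type, which divides photosynthesis between mesophyll (MS) and bundle sheath (BS) cells. BS chloroplasts of such plants are known for few grana, little photosystem II and an abundant NADH dehydrogenase-like (NDH) complex, which takes part in cyclic electron flow around photosystem I. Most plastid transcripts are not stably polyadenylated, while the chemistry used here primes on runs of A. The values are therefore counts of captured molecules. They were not divided by length, and an order between features is an order of UMI counts, not of transcript abundance.

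Barcodes were classed by nuclear genes, so the classes did not use any chloroplast feature. An MS barcode had at least 10 UMIs of PEP1 and CAH1 (PEP carboxylase and carbonic anhydrase), and more of this pair than of ME1 and RBCS1 (NADP-malic enzyme and a Rubisco small subunit). A BS barcode showed the reverse. Barcodes with over 1800 detected genes, chloroplast features included, are called kept and the others low-gene. Kept MS barcodes numbered 4184 in library 1 and 3348 in library 2, and kept BS barcodes 78 and 30. With nuclear genes alone counted, kept MS barcodes numbered 4166 and 3307 and kept BS barcodes again 78 and 30. The low-gene barcodes comprised 2134 and 1873 of MS and 170 and 46 of BS. Markers that the rule did not use followed the classes. The summed level of 4 MS markers (MDH6, PDK1, PDRP1 and GLYK) was 9597 and 13900 UMIs per 1000000 of the sum (CPM) in kept MS against 1621 and 2306 CPM in kept BS barcodes. The summed level of 8 BS markers, RBCS2 and PCK1 among them, was 36980 and 51470 CPM in kept BS against 152 and 149 CPM in kept MS barcodes. The companion cell marker SUT1 had 14 UMIs in kept BS barcodes of library 1 and 0 in those of library 2.

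Of the 157 features, 64 had at least 1 UMI and 93 had none in either library. Detection was 63 features in library 1, 57 in library 2 and 56 in both. It was uneven between kinds of gene. All 39 tRNA features were at 0, and the 8 rRNA features held 24 UMIs together. Of the 29 unnamed open reading frames 2 were detected, with ZemaCp010 the more abundant. The 47 features with 100 UMIs or more were all protein-coding, and these 47 passed the filter on low counts. The other 17 detected features held 190 UMIs in all, of 2568635 chloroplast UMIs, and no more than 68 each. A count of 0 allowed up to 0.0368 CPM in the deepest sum (kept MS barcodes of library 1) and up to 6.79 CPM in kept BS barcodes of library 2. These limits cover counting error only.

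Detection differed sharply between neighbouring genes of the same complex. atpE, the epsilon subunit of the ATP synthase, had 229572 UMIs, while atpB, the beta subunit whose coding sequence overlaps it, had 0. Similarly, psbC (the CP43 antenna of photosystem II) had 93723 UMIs and the overlapping psbD (the D2 reaction centre protein) had 4. matK, a maturase encoded inside the trnK intron, had 151919 UMIs, and trnK had 0. The 40 features that share a symbol with another feature, the repeated copies of ndhB, rpl23, rps7, rps15 and rps19 among them, held 2 UMIs in all, both of rpl2. How reads that match more than 1 copy or gene were counted was not tested, so these zeros are uncertain. Some genes with neither a further copy nor an overlapping feature were also at or near 0. psbI had 0 UMIs next to psbK with 364556, and atpH had 0 and atpA 5 on either side of atpF with 441456. Why these were low was not tested. rbcL, the large subunit of Rubisco, had 1 UMI. A nuclear-genome ID that the study names RBCL (Zm00001d006402) held 6145 UMIs in library 1 and 3245 in library 2. Its level was 740 and 2134 CPM in kept BS against 39.6 and 32.2 CPM in kept MS barcodes. Whether its reads came from the chloroplast was not tested.

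In kept MS barcodes chloroplast features made up 1.95% of UMIs in library 1 (exact 95% interval 1.95 to 1.95) and 1.34% in library 2 (1.33 to 1.34). The mean was 1.64% ± 0.432 (SD, n = 2). In kept BS barcodes the share was 2.77% (2.74 to 2.79) and 2.21% (2.17 to 2.25), with a mean of 2.49% ± 0.393 (SD, n = 2). These intervals cover counting error only, not the spread between barcodes. In kept BS of library 2, the 5 barcodes with most chloroplast UMIs held 34.9% of them. The BS share was thus higher in each library, by 1.42-fold in library 1 and 1.65-fold in library 2, and the 2 classes did not overlap. Under the study's whole filter they did. The share was then 2.09% and 1.81% in kept BS against 1.86% and 1.31% in kept MS barcodes. BS of library 2 thus lay below MS of library 1. This filter removes kept barcodes with 4% or more of chloroplast UMIs, so it acts on the share itself. Low-gene barcodes had larger shares that differed more between the libraries. The share was 5.81% and 1.73% in low-gene MS barcodes, with a mean of 3.77% ± 2.89 (SD, n = 2). It was 11.7% and 4.06% in low-gene BS barcodes, with a mean of 7.89% ± 5.42 (SD, n = 2). Low-gene MS barcodes of library 2 lay below the kept MS barcodes of library 1. With 2 libraries, an exact permutation test of a share could not go below p = 0.5 when paired by library or 0.333 when unpaired (two-sided), so the shares carry no test.

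**Figure D1:**
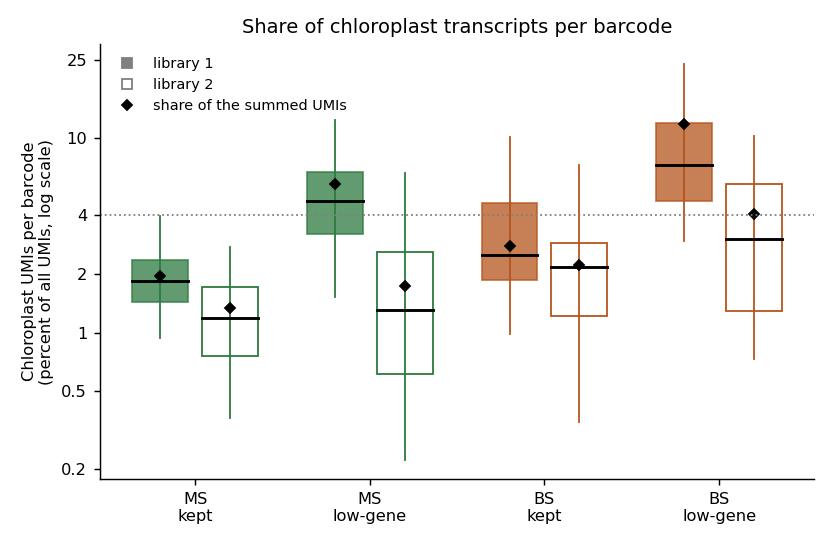
Chloroplast UMIs as a percent of all UMIs of a barcode (log axis) by class and state, filled boxes for library 1 and open boxes for library 2. Boxes span the quartiles, whiskers the 5th to 95th percentiles, black lines mark medians, diamonds the share of the summed UMIs, and the dotted line 4%. Medians rise from 1.85% in kept MS to 7.24% in low-gene BS barcodes of library 1, and from 1.19% to 3.01% in library 2.

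Barcodes of a class spread widely around these values, as the plot of shares per barcode shows. The median barcode of kept MS held 1.85% in library 1 and 1.19% in library 2, and the highest held 16.0% and 7.95%. The study removed barcodes with 4% or more of chloroplast UMIs as damaged. Of kept MS barcodes, 4.83% in library 1 and 0.896% in library 2 were at or over this limit. Among kept BS barcodes it was 22 of 78 (28.2%, exact 95% interval 18.6 to 39.5) in library 1 and 3 of 30 (10.0%, 2.11 to 26.5) in library 2. Of low-gene barcodes, 62.7% and 13.2% of MS and 85.3% and 41.3% of BS reached it. Across the 78 kept BS barcodes of library 1, the share of chloroplast UMIs was negatively related to depth (Spearman's rho = -0.714), as a description over cells of 1 library. The relation was not general, with rho at 0.454 in low-gene BS barcodes of library 1 and from -0.356 to 0.0979 in the MS groups. Mitochondrial UMIs moved with the low-gene state as well. They were 0.136% and 0.165% in kept MS against 1.02% and 0.478% in low-gene MS barcodes, and 0.259% and 0.398% in kept BS against 1.80% and 1.48% in low-gene BS barcodes. The part of cell damage in the chloroplast share was not tested.

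The number of chloroplast features seen per barcode differed between the groups. The median was 30 and 21 features in kept MS (libraries 1 and 2), 32 and 28 in kept BS, 20 and 11 in low-gene MS, and 23 and 18 in low-gene BS barcodes. After each barcode was thinned to 1000 UMIs the order changed. The median was then 10 and 6 in kept MS, 11 and 7 in kept BS, 18 and 6 in low-gene MS, and 23 and 10 in low-gene BS barcodes. Thinning left out 733 and 171 low-gene MS barcodes and 86 and 10 low-gene BS barcodes, which had fewer UMIs.

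A few features carried most chloroplast UMIs in both classes. The 5 leading features held 62.8% of chloroplast UMIs in kept MS barcodes of library 1 and 74.6% in those of library 2. The corresponding values for kept BS barcodes were 68.5% and 76.6%. In kept MS barcodes atpF, a subunit of the membrane part of the ATP synthase, had 3232 and 2876 CPM (mean 3054 ± 252, SD, n = 2). It was followed by psbK, a small subunit of photosystem II, with 2552 and 2945 CPM, and by ndhC, a membrane subunit of the NDH complex, with 2683 and 2388 CPM. These 3 did not keep their order between the libraries, since psbK led in library 2 and atpF in library 1. atpE had 1853 and 1276 CPM. Below it stood petB (cytochrome b6, 1914 and 241 CPM) and matK (1510 and 169 CPM), whose places rested on library 1. psbC followed with 648 and 480 CPM, then petA, which encodes cytochrome f, with 503 and 223 CPM. clpP, the plastid-encoded part of the Clp protease, had 449 and 253 CPM, and the ribosomal protein gene rpl22 had 427 and 228 CPM.

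In kept BS barcodes ndhC led in both libraries, with 8638 and 9188 CPM (mean 8913 ± 389, SD, n = 2). It alone took 31.2% of chloroplast UMIs in library 1 and 41.6% in library 2. atpF came next with 3969 and 3245 CPM, ahead of atpE with 1899 and 2364 CPM. petB had 3232 and 412 CPM and psbK 926 and 1285 CPM. ndhD and ndhI, further NDH subunits, had 983 and 844 CPM and 1201 and 550 CPM. matK had 931 and 136 CPM, ndhK 454 and 514 CPM and rpl22 618 and 342 CPM. Thus 4 of the 10 leading features of kept BS barcodes were ndh genes, against 1 of 10 in kept MS barcodes.

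**Figure D2:**
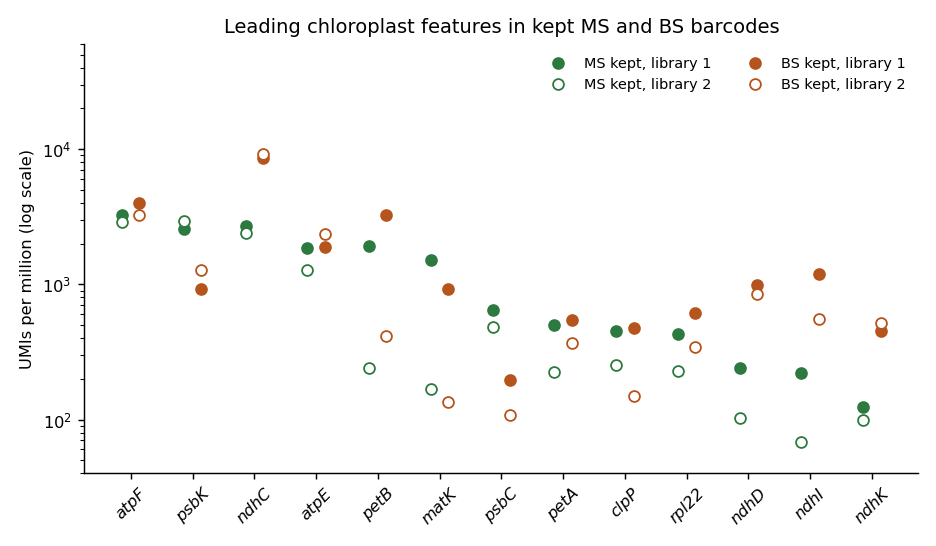
Level in CPM (log axis) of the 13 chloroplast features that lead in kept MS or kept BS barcodes, ordered by their mean in MS. Green points are MS and brown points BS, filled for library 1 and open for library 2. The 4 ndh genes lie higher in BS in both libraries, psbK and psbC lower, and petB and matK differ mainly between libraries.

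BS and MS barcodes were compared on summed UMIs with edgeR's quasi-likelihood test, which kept the library as a term and adjusted p-values by Benjamini-Hochberg over 13200 genes. Among kept barcodes 15 of the 47 tested features passed the threshold of 0.05 (31.9%), beside 24.2% of all genes tested. Higher in BS were 11 (23.4%, beside 11.4% of all genes) and lower were 4 (8.51%, beside 12.9%). The 11 consisted of all 10 ndh genes with UMIs and psaC. The 4 were photosystem II genes. The median log2 fold change was 0.27 over the 47 features and -0.12 over all genes. None of the tested genes of the cytochrome b6f complex (3), the ATP synthase (2), the RNA polymerase (2), the small ribosomal subunit (7) or the large ribosomal subunit (6) passed, nor did the 6 other named genes.

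The NDH complex has 12 features in the annotation, of which the 2 copies of ndhB were at 0. The 10 detected genes rose in BS by log2 1.87 to 3.03 (median 2.36). ndhA, a membrane subunit, had 17.5 and 9.65 CPM in kept MS and 138 and 83.7 CPM in kept BS barcodes. Every BS value lay above every MS value, a change of log2 3.03 ± 0.47 (SE; edgeR, adjusted p = 3.91e-09). ndhI, an iron-sulfur subunit, had 222 and 68.0 CPM in MS and 1201 and 550 CPM in BS (2.82 ± 0.47, edgeR, adjusted p = 3.22e-08). ndhD had 239 and 102 CPM in MS and 983 and 844 CPM in BS (2.71 ± 0.46, edgeR, adjusted p = 1.03e-07). ndhH had 31.4 and 20.2 CPM in MS and 131 and 156 CPM in BS (2.61 ± 0.46, edgeR, adjusted p = 2.44e-07). The groups did not overlap for any of these 4 genes. They were picked for large changes and have 2 values a group, so this adds no evidence. ndhG rested on 48 and 4 UMIs in BS, at 27.7 and 9.05 CPM against 4.47 and 1.62 CPM in MS (2.44 ± 0.53, edgeR, adjusted p = 4.55e-05). The remaining genes were ndhJ (2.27), ndhK (2.21), ndhF (2.16), ndhE (1.98) and ndhC (1.87). ndhE, with 9 and 5 UMIs in kept BS, had the highest adjusted p of the complex (edgeR, adjusted p = 0.0259). Under the study's whole filter the log2 fold change of ndhE fell to 0.31, and it did not pass.

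The 10 detected ndh genes lie at 3 places of the plastid genome, and psaC lies within a run of them. In the gene order of the reference annotation (assembly Zm-B73-REFERENCE-NAM-5.0), ndhD, psaC, ndhE, ndhG, ndhI, ndhA and ndhH stand side by side with no other feature between them. psaC, the iron-sulfur subunit of photosystem I, is known to be cotranscribed with ndh genes in this stretch. It had 20.4 and 19.0 CPM in kept MS and 45.1 and 58.8 CPM in kept BS barcodes, which is log2 1.36 ± 0.46 higher (SE; edgeR, adjusted p = 0.0151). The call was lost with DESeq2, without the low-count filter and under the study's whole filter. Of the nearest tested genes outside these runs none passed. ccsA, needed for attaching haem to cytochromes, lies next to ndhD and was at -1.06 ± 0.55 (edgeR, adjusted p = 0.159). The neighbouring trio ndhJ, ndhK and ndhC is separated by tRNA genes from rps4 (-0.86 ± 0.48, edgeR, adjusted p = 0.201) and atpE (0.60 ± 0.44, edgeR, adjusted p = 0.369). ndhF stands apart, next to rpl32 (-0.33 ± 0.66, edgeR, adjusted p = 0.792).

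Photosystem II moved the other way. Of its 15 features 12 were detected and 7 tested, and all 7 had negative fitted values in BS (median log2 fold change -1.51), with 4 past the threshold. psbA, which encodes the D1 reaction centre protein, had 142 and 194 CPM in kept MS and 27.7 and 31.7 CPM in kept BS barcodes. The change in BS was log2 -2.55 ± 0.49 (SE; edgeR, adjusted p = 2.73e-06). psbC had 197 and 109 CPM in BS against 648 and 480 CPM in MS (-1.97 ± 0.46, edgeR, adjusted p = 1.79e-04). psbE, a subunit of cytochrome b559, had 13.9 and 9.05 CPM in BS against 47.6 and 23.7 CPM in MS (-1.85 ± 0.56, edgeR, adjusted p = 0.00561). It rested on 24 and 4 UMIs in BS. Of these 4 psbK had the smallest change, to 926 and 1285 CPM from 2552 and 2945 CPM (-1.28 ± 0.44, edgeR, adjusted p = 0.0206), and the call was lost with DESeq2. Without the library term psbC, psbE and psbK were not called. psbZ (-1.51 ± 0.61, edgeR, adjusted p = 0.0545), psbB, which encodes the CP47 antenna (-1.05 ± 0.48, edgeR, adjusted p = 0.103), and psbH (-0.58 ± 0.48, edgeR, adjusted p = 0.439) did not pass.

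Genes of the other complexes differed less between the classes. For photosystem I, psaA had 117 and 94.1 CPM in kept MS and 255 and 124 CPM in kept BS barcodes (log2 0.69 ± 0.44, SE; edgeR, adjusted p = 0.28). Its partner psaB, the other core protein, had 304 and 166 CPM in MS and 344 and 176 CPM in BS (0.13 ± 0.44). atpF was at 0.23 ± 0.44 and petB at 0.78 ± 0.44, both SE, and neither passed (edgeR, adjusted p = 0.777 and 0.21). In a fit of only the 4 sums compared petB did pass (0.77 ± 0.28, edgeR, adjusted p = 0.0295). Among genes of plastid gene expression, rpoA, the alpha subunit of the plastid RNA polymerase, had 189 and 93.1 CPM in MS and 275 and 152 CPM in BS (0.63 ± 0.44). rps3, a small ribosomal subunit gene, was at 0.55 ± 0.44, rpl14 at 0.06 ± 0.44 and rpl22 at 0.57 ± 0.44.

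**Figure D3:**
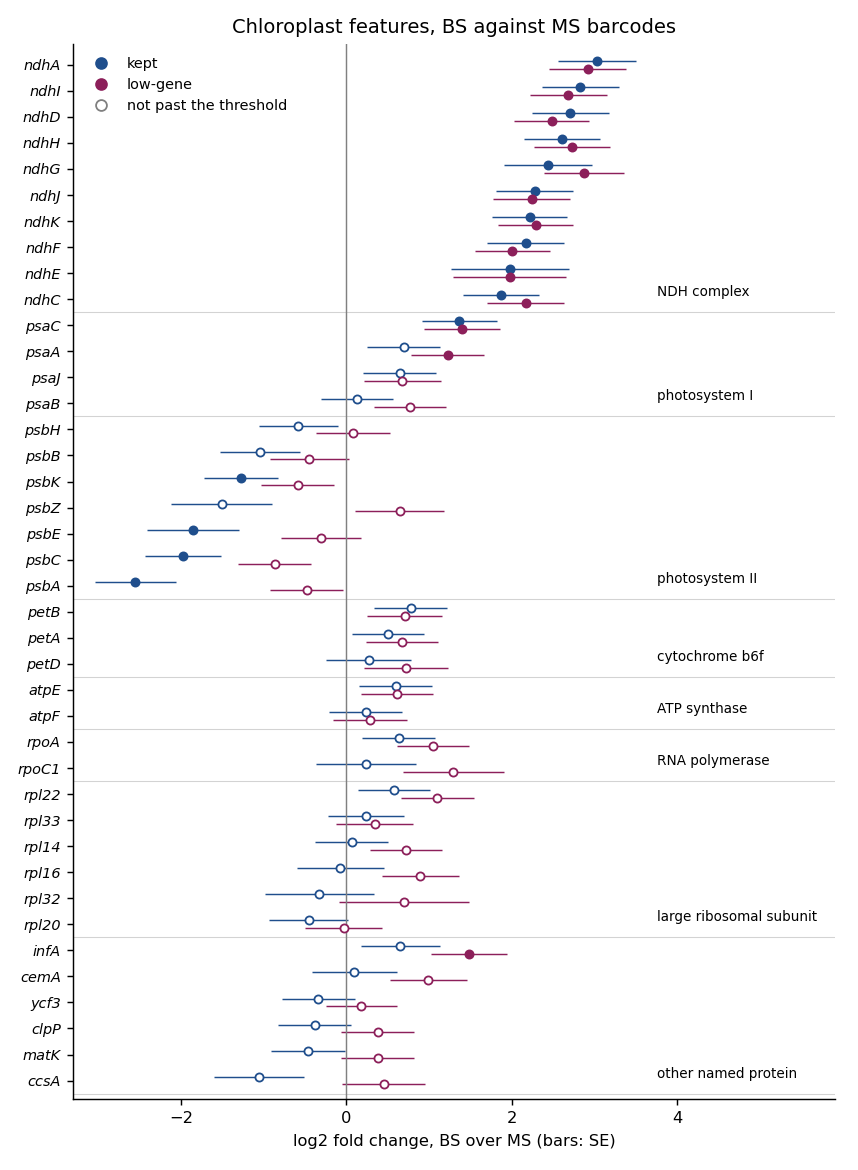
log2 fold change of BS over MS barcodes for the tested chloroplast features of each complex (small ribosomal subunit not drawn), with bars for the SE. Blue points are kept and purple points low-gene barcodes, and filled points passed the adjusted threshold. The 10 ndh genes lie between 1.87 and 3.03 in both states. The photosystem II genes run from -2.55 to -0.58 in kept barcodes, and ccsA (-1.06) falls within this range.

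The calls for kept barcodes depended in part on which barcodes and terms were used. Under the study's whole filter 17 features passed, 9 higher and 8 lower. That filter selects kept barcodes on their chloroplast share, among other limits. ndhE and psaC were lost, and psbB (-1.87), psbZ (-2.18), ccsA (-1.60) and rps4 (-1.28) were added as lower in BS. Without the library term 6 were left, ndhA, ndhC, ndhD, ndhH and ndhK as higher and psbA as lower. In the fit of only the 4 sums compared 16 passed, with petB added as higher.

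The same contrast in low-gene barcodes gave 13 of 47 features past the threshold (27.7%, beside 11.4% of all genes), all higher in BS (27.7%, beside 5.37% of all genes). None was lower (beside 6.05% of all genes), with 1 feature lower at an unadjusted p under 0.05 by edgeR, and DESeq2 also called 0 as lower. The 13 were the 10 ndh genes, psaC, psaA and infA, a plastid translation initiation factor. The median log2 fold change was 0.75 over the 47 features and -0.38 over all genes. ndhA had 148 and 21.1 CPM in low-gene MS and 819 and 306 CPM in low-gene BS barcodes (2.91 ± 0.46, SE; edgeR, adjusted p = 2.37e-08). The next largest were ndhG (2.87 ± 0.48), ndhH (2.72 ± 0.46), ndhI (2.68 ± 0.46) and ndhD (2.48 ± 0.46). Of these 5 only ndhI overlapped between the classes, since MS of library 1 (1536 CPM) exceeded BS of library 2 (1256 CPM). These 5 too were picked for large changes, so this is description only. psaA was at 1.22 ± 0.44 (edgeR, adjusted p = 0.0494), psaC at 1.40 ± 0.46 (0.0244) and infA at 1.48 ± 0.46 (0.0152). These 3 and ndhE, with 13 and 1 UMIs in BS, were lost in a fit of only the 4 sums compared, with DESeq2 and without the low-count filter. Without the library term only 2 features, ndhC and ndhH, passed.

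None of the 7 tested photosystem II genes passed in low-gene barcodes, where they ran from -0.87 to 0.64 on the log2 scale. psbA had 707 and 301 CPM in MS and 417 and 337 CPM in BS (-0.48 ± 0.44, SE; edgeR, adjusted p = 0.54), so that the libraries moved in opposite directions. psbC was at -0.87 ± 0.44 (edgeR, adjusted p = 0.203), psbK at -0.59 ± 0.44 (0.427) and psbE at -0.30 ± 0.48 (0.763). Low-gene BS barcodes also held more of the MS markers. A median of 11.6% of the UMIs of the 4 class markers came from the MS pair in library 1 and 6.00% in library 2, against 0.377% and 0.257% in kept BS barcodes. The 4 unused MS markers summed to 3800 and 5421 CPM in low-gene BS barcodes. Where the own pair had to be at least 10 times the other, psbC passed (-1.21 ± 0.40, edgeR, adjusted p = 0.0278). In that setting psbA (-0.63, edgeR, adjusted p = 0.373), psbK (-0.88, 0.133) and psbE (-0.52, 0.567) did not. The count was 11, of which 10 were higher, and ndhE, psaA and psaC were lost. The part of MS transcripts in the BS low-gene values was not tested.

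The interaction of class and state asked whether the contrast between BS and MS differed between kept and low-gene barcodes. It was called for 0 of the 47 features by edgeR, beside 0.333% of all genes, with 4 at an unadjusted p under 0.05. DESeq2 also called 0, with 2 at an unadjusted p under 0.05. The largest fitted values were those of psbZ (log2 2.15 ± 0.82, SE; edgeR, adjusted p = 0.67) and psbA (2.07 ± 0.65, edgeR, adjusted p = 0.264). psbA passed under the study's whole filter (2.54 ± 0.65, edgeR, adjusted p = 0.024). That filter removes barcodes with 4% or more of chloroplast UMIs from the kept groups only, so it acts on the levels compared. For the ndh genes the interaction ranged from -0.23 to 0.43. For the 7 tested photosystem II genes it ranged from 0.60 to 2.15 (median 1.10), with none called. Over the 47 features 40 fitted values were positive and 7 negative.

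Low-gene barcodes were then compared with kept barcodes within each class. In MS, 23 of 47 features passed (48.9%, beside 5.05% of all genes), all higher in low-gene barcodes (beside 4.83% of all genes). In BS, 31 of 47 passed (66.0%, beside 5.20% of all genes), again all higher (beside 1.89% of all genes). All 47 fitted values were positive in both classes, with medians of 1.27 and 1.77, beside -0.05 and -0.19 over all genes. The size differed between libraries. The median log2 ratio within MS was 2.12 in library 1 and 0.60 in library 2, and within BS it was 2.57 and 1.17. In MS 45 of 47 features were higher in both libraries, and in BS 43 of 47. Without the library term no feature passed in either class by edgeR, with 28 in MS and 36 in BS at an unadjusted p under 0.05. DESeq2 with the library term called 5 in MS and 25 in BS.

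The largest changes with state were not those of the leading features. In MS they were ndhG (2.21 ± 0.44), psbH, a small photosystem II subunit (2.17 ± 0.44), ndhE (2.14 ± 0.51), ndhA (2.11 ± 0.45) and rpl16 (1.96 ± 0.41), all log2 with SE. Of these the 3 ndh genes were also higher in BS than in MS barcodes, and BS markers moved with the low-gene state of MS. The 8 BS markers summed to 152 and 149 CPM in kept MS and to 848 and 237 CPM in low-gene MS barcodes. All 8 were higher in low-gene MS of library 1 and 7 of 8 in library 2, where PRK2 was at 0. Among barcodes whose own pair was at least 10 times the other, ndhG was at 2.19, ndhE at 2.10 and ndhA at 2.07. The part of BS transcripts in the MS low-gene values was not tested. psbH had 39.1 and 48.6 CPM in kept and 315 and 130 CPM in low-gene MS barcodes. The leading features atpF (0.64 ± 0.45), psbK (0.60 ± 0.44), atpE (0.46 ± 0.44) and petB (0.44 ± 0.44) did not pass. atpE in library 2 had 1276 CPM in kept and 1268 CPM in low-gene MS barcodes. In BS the largest among features with at least 30 UMIs in the sums compared were psbA (3.47 ± 0.51), ccsA (3.02 ± 0.63), psbE (2.94 ± 0.61), rpl16 (2.93 ± 0.57) and psbH (2.83 ± 0.52). psbA had 27.7 and 31.7 CPM in kept and 417 and 337 CPM in low-gene BS barcodes. The value of ccsA rested in library 2 on 1 UMI in kept and 9 in low-gene BS barcodes, a 40.6-fold ratio with an exact interval of 5.63 to 1780. psbE had 4 and 2 UMIs there, a ratio of 2.26 with an interval of 0.204 to 15.7. psbZ was at 3.31 ± 0.72 on only 28 UMIs. These intervals cover counting error only.

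Within the chloroplast UMIs alone, the 2 classes differed in composition. The features of the NDH complex took 17.3% of chloroplast UMIs in kept MS barcodes of library 1 and 20.3% in library 2, against 42.3% and 52.1% in kept BS barcodes. Photosystem II features took 17.9% and 28.1% in kept MS against 4.39% and 6.78% in kept BS. The ATP synthase took 26.1% and 31.1% in MS and 21.2% and 25.4% in BS, so its ranges lay closer together. Photosystem I took 2.46% and 2.47% in MS and 2.49% and 2.08% in BS. In low-gene barcodes the NDH complex took 20.8% and 23.8% in MS and 46.1% and 61.2% in BS, and photosystem II 18.3% and 28.5% in MS and 6.06% and 8.73% in BS. ndhC made up 79.2% of all NDH UMIs and psbK 72.2% of all photosystem II UMIs. Without ndhC the other NDH genes still took 11.1% and 10.6% in kept BS against 3.51% and 2.45% in kept MS barcodes.

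The difference in composition was visible barcode by barcode. Among barcodes with at least 50 chloroplast UMIs, the median NDH share in kept MS was 17.7% in library 1 (n = 4148) and 20.4% in library 2 (n = 2803). In kept BS it was 42.1% (n = 77) and 52.0% (n = 28). In kept barcodes all 77 and all 28 of BS lay above the 95th percentile of the MS barcodes of their library, which was 26.0% and 32.0%. This separation rested in part on ndhC. Without it 57 of 77 and 28 of 28 kept BS barcodes lay above the MS 95th percentile, and 63 of 106 and 22 of 27 low-gene BS barcodes. For photosystem II, 77 of 77 and 27 of 28 kept BS barcodes lay below the 5th percentile of MS, 11.3% and 15.3%. In low-gene barcodes 88 of 106 and 24 of 27 BS barcodes lay above the MS 95th percentile for NDH. Cells of a library are not replicates, and these counts describe the 2 libraries.

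**Figure D4:**
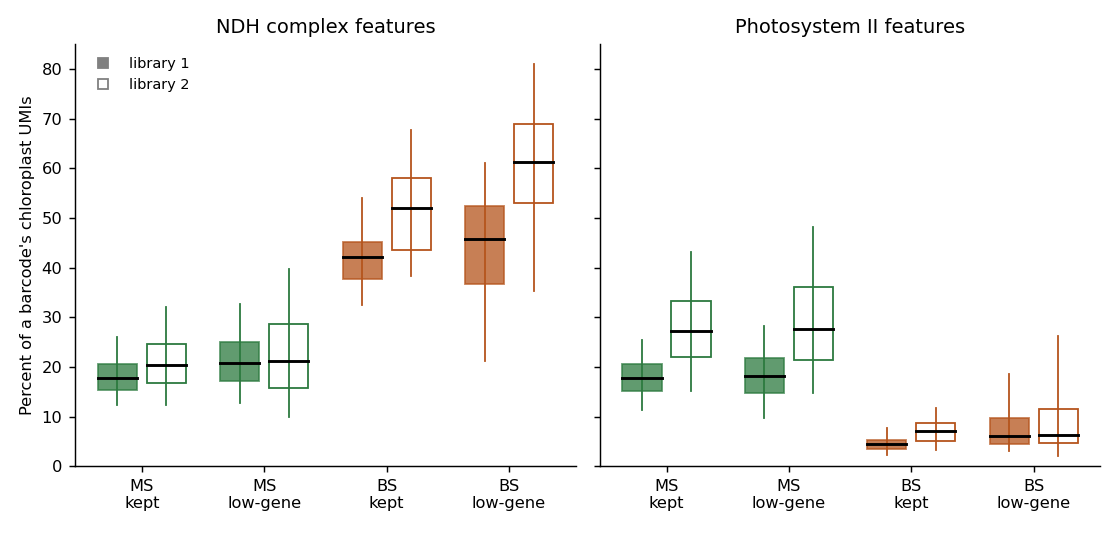
Share of a barcode's chloroplast UMIs from NDH complex features (left) and photosystem II features (right), by class and state, for barcodes with at least 50 chloroplast UMIs. Boxes span quartiles with the median, whiskers the 5th to 95th percentiles, filled for library 1 and open for library 2. The median NDH share is 17.7% and 20.4% in kept MS and 42.1% and 52.0% in kept BS barcodes, and the photosystem II shares are ordered the other way.

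The 2 libraries ranked the features alike but differed in a few of them. Over the 47 features Spearman's rho between the libraries was 0.962 in kept MS and 0.945 in kept BS barcodes, as a description across genes. matK and petB stood apart from the rest. As a share of chloroplast UMIs in kept MS barcodes, matK was 6.15-fold and petB 5.45-fold higher in library 1 than in library 2, while the next feature, ndhI, was 2.24-fold higher. At the other end rps14, a small ribosomal subunit gene, had a ratio of 0.236. The same direction was seen in the other sums. petB was 4.29-fold higher in low-gene MS, 6.27-fold in kept BS and 9.57-fold in low-gene BS barcodes, and matK 3.76-fold, 5.48-fold and 1.99-fold. The typical barcode showed the same. The median kept MS barcode gave petB 9.33% of its chloroplast UMIs in library 1 and 1.54% in library 2, and matK 6.95% and 1.05%. With 1 library a side there is no test. Between the classes the log2 ratio of petB was 0.76 in library 1 and 0.77 in library 2 for kept BS over kept MS barcodes, and 1.05 and 0.11 for low-gene barcodes.

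**Figure D5:**
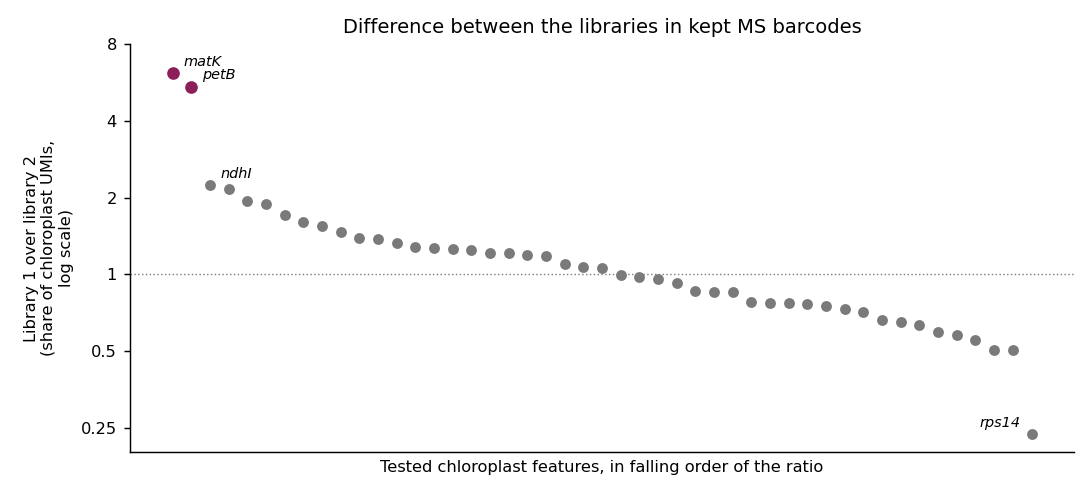
Ratio of library 1 over library 2 (log axis) for the share of chloroplast UMIs of each of the 47 tested features in kept MS barcodes, in falling order, with the features named in the text labelled. matK (6.15) and petB (5.45), in purple, lie apart from the other 45 features, which run from 2.24 down to 0.236.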

How the data were processed

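Protoplasts of maize leaf 2 were profiled in 2 droplet libraries. The deposited values are raw UMI counts per gene and barcode. The authors ran Cell Ranger against B73 RefGen_v4 on each library, with STAR per the submitters' processing notes. How reads of overlapping genes were counted is not given in the sources used here. UMIs were summed per library, class and state (8 sums, 97951 to 81508699 UMIs), and CPM is UMIs per 1000000 of a sum. The sums were tested with edgeR 4.0.16 (TMM, filterByExpr, library term because all sums of a library share its pool, quasi-likelihood, 3 residual degrees of freedom). The 4 class markers were left out. The test used a variance shared by all genes (biological coefficient of variation 0.269, infinite prior degrees of freedom). A gene's own spread thus had no weight. SEs were derived from each fold change and its F statistic. The script was tested on simulated data. Ratios within a library are of CPM, with no test. Shares carry exact Clopper-Pearson intervals (95%). For features at 0 the upper limit was set at 3 counts. No doublet caller was run. The named features were the 10 highest in kept MS and BS, up to 5 called per direction and comparison with at least 30 UMIs and the same direction in both libraries, the leading feature of each group, rbcL and those the study pairs with a symbol. The complete lists by complex are given as counts. A feature that this rule selects is not reported here. Members and lists were chosen with earlier results of these data known. DESeq2 1.42.0 and other scalings, filters and classes were tried. Names came from a RefSeq table of assembly Zm-B73-REFERENCE-NAM-5.0, by ID, and 120 of 157 features had a symbol. That build differs from the files' build, so no coordinates are given.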

Additional observations from a re-analysis of the deposited data

Results flagged for a closer look

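Barcodes that met neither class rule entered no comparison, and their chloroplast share is given here as a description. In low-gene barcodes of neither class it was 10.7% in library 1 (762 barcodes) and 3.37% in library 2 (796 barcodes). In kept barcodes of neither class it was 0.41% in library 1 (12 barcodes) and 0.307% in library 2 (11 barcodes). Among the former with at least 50 chloroplast UMIs, the NDH share of chloroplast UMIs had a median of 22.1% in library 1 (n = 301) and 31.0% in library 2 (n = 224). Its 5th to 95th percentiles were 13.9% to 52.1% in library 1 and 12.3% to 56.9% in library 2. In each library they reached from the MS into the BS range.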

How the results depend on the processing

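Without the library term (no replicate block), the features called were 6 for BS against MS in kept and 2 in low-gene barcodes, and 0 for low-gene against kept in both MS and BS. For low-gene against kept in MS, DESeq2 called 5 and the rule of at least 20 marker UMIs 12. The interaction called 1 feature under the study's whole filter, which also moved the mean share in kept BS to 1.95%. That filter removes kept barcodes with 4% or more of chloroplast UMIs, so it acts on the share itself. Causes of the other changes were not tested. Other counts of called features stayed within 1.5 times the reported ones. Without replicate 1 or without replicate 2, all 15, 13, 23 and 31 called features kept their sign in the library left, which allows no test. Leaving out from each sum the barcode with most chloroplast UMIs was chosen after seeing the data and left 16, 11, 22 and 33 calls in the 4 comparisons and 0 for the interaction. Only 2 pools and 46 and 30 BS barcodes in the smallest sums limit precision. Features with under 100 UMIs did not pass the low-count filter, and without the filter none of them was called. A count of 0 in low-gene BS barcodes of library 2 allowed up to 30.6 CPM.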
